A study of Homo sapiens with 12 samples.

Results

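The 29 genes described here make, control, take up and export cholesterol in human B-cell acute lymphoblastic leukaemia cells. They were chosen by name, from the mevalonate and sterol pathway, its control by SREBP, the uptake and movement of sterol and its efflux. Earlier results of these data were known at that time, so the shares over all genes given beside member counts are a description. Each member was matched by symbol to 1 Ensembl identifier among the 60664 genes of the count table. The members are 7 enzymes of the early mevalonate steps, 11 enzymes from squalene to cholesterol, 5 genes of SREBP control, 4 genes of uptake and transport inside the cell and 2 efflux pumps. RNA was sequenced from poly(A)-captured libraries of a pair of cell lines, with 3 libraries in each of 4 groups. TOM-1 is a Philadelphia-positive line, with BCR fused to ABL1, and RS4;11 is a KMT2A-rearranged line. Both are labelled as wild type lymphoblasts from blood. Each line was grown in serum-containing RPMI for 24 hours, the treated cultures with ADI-PEG20 at 1000 ng/ml and the controls without it. ADI-PEG20 is a pegylated arginine deiminase, which turns the arginine of the medium into citrulline; cells with the enzymes ASS1 and ASL can rebuild arginine from citrulline, and the series asks whether a lack of ASS1 makes Philadelphia-positive leukaemia vulnerable to it. Each line stands for 1 patient's leukaemia, so a difference between the lines cannot be told apart from other differences between these 2 lines. The labels do not say whether the 3 libraries of a group came from separate cultures. The p-values therefore measure the spread between libraries, which may be technical and in the main fit is estimated over all 4 groups together.

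As background, cholesterol is built from acetyl-CoA through mevalonate, isoprenoids and squalene, and a final series of sterol intermediates is trimmed to cholesterol in the endoplasmic reticulum. When sterol there is low, SCAP carries the SREBP transcription factors to the Golgi, where they are cut and released to switch on the genes of synthesis and uptake. When sterol is high, INSIG proteins hold SCAP back, and oxysterols activate LXR, which switches on efflux pumps and MYLIP. Dividing lymphoid cells need cholesterol for new membrane and raise this pathway when they enter growth.

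The RefSeq promoters (build GRCh38.p14) of DHCR7, MVD, ABCA1 and MYLIP are shown, since these 4 genes mark the opposite ends of the response of TOM-1 to ADI-PEG20. They are the 2 members that fell most and the 2 that rose most in the fit without TOM-1 control replicate 3, a library described below; with all libraries EBP (log2 fold change -2.06) fell more than DHCR7 (-1.98). FDFT1 and SQLE were not eligible. Of the 250 bases before the annotated start, the longest stretch outside any GENCODE exon is printed 5′ to 3′ on the gene's strand, and capitals mark CCAAT boxes (CCAAT, or ATTGG on the other strand) and the E-box CACGTG.
DHCR7, minus strand, chr11:71448436-71448643: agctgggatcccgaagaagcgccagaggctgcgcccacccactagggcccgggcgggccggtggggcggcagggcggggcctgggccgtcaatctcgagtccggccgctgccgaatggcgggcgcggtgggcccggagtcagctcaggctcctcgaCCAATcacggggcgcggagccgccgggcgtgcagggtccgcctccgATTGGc
MVD, minus strand, chr16:88663162-88663297: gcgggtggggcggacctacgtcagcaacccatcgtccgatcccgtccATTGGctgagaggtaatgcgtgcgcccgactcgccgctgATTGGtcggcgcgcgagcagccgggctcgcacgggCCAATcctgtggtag
ABCA1, minus strand, chr9:104928238-104928405: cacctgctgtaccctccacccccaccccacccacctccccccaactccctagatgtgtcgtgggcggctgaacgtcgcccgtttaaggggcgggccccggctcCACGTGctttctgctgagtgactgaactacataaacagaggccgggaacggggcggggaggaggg
MYLIP, plus strand, chr6:16128836-16129085: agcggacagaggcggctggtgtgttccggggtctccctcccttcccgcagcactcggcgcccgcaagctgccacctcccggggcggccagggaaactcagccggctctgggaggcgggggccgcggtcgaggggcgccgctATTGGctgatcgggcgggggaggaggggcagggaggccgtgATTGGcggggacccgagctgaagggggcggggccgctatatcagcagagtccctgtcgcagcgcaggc
The DHCR7 stretch holds 2 CCAAT boxes, the MVD stretch 3, the MYLIP stretch 2 and the ABCA1 stretch none, with 1 E-box in the ABCA1 stretch. CCAAT is the letter pattern of the factor NF-Y, which is known to act beside SREBP at sterol gene promoters. RefSeq listed a promoter for 25 of the 29 members, and the first listed start was used for each gene. DHCR7 had 2 listed starts, and the stretch shown for it lies inside the span of the GENCODE gene. On either strand of the full 250 bases, CCAAT was found in 17 of these 25 (68.0%) and in 33.0% of 27305 promoters. TCACNCCAC, a pattern of the sterol regulatory element that SREBP binds, was found in 1 of the 25, that of SREBF2, and in 0.875% of all promoters. CACGTG was found in 4 of the 25 (16%) and in 6.49% of all promoters. These are matches of letters within 1 window and not binding sites.

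Levels are given as CPM, the reads of a gene as a share of the library's total after TMM scaling. Total counts ran from 18958144 to 35956959 per library, and 17349 genes passed the filter on low counts, all 29 members among them. TOM-1 control replicate 3 stood apart from its group. Reads fell on 14963 genes there and on 19857 to 21997 genes elsewhere, and ribosomal protein genes took 19.7% of its counts, against 9.21% and 8.95% in TOM-1 control replicates 1 and 2. The main counts and most member values for TOM-1 are therefore given with and without it. Among the treated TOM-1 libraries ribosomal protein genes took 5.91% to 6.06% of counts, and the part of this shift in the results was not tested. Of the 11 B-lymphoblast markers, all were above 3 counts in every library. Of 5 T-cell markers, CD2, CD3D and CD3G were at the floor of 3 counts in both lines while TRAC was present (123 to 479 CPM), and the 4 erythroid markers summed to at most 0.496 CPM. Of 5 markers of stroma and epithelium, COL1A2, EPCAM and KRT18 were at the floor in both lines. COL1A1 was above 3 counts in every RS4;11 library, where the 5 markers summed to 3.79 to 7.84 CPM. PECAM1, a marker of the endothelium that B-lineage cells can carry, stood at 185 to 253 CPM in TOM-1 and at most 1.11 CPM in RS4;11. HOXA9, HOXA10 and MEIS1, which mark KMT2A-rearranged leukaemia, had 0 counts in TOM-1 and summed to 219.7 to 244 CPM in RS4;11. The B-lymphoblast markers summed to 7090 to 8670 CPM in TOM-1 control and 7522 to 7792 CPM in treated TOM-1, the 4 NK-cell markers (KLRD1 and NCAM1 at the floor) to 24.9 to 69.1 and 42.7 to 46.9 CPM, nearly all of it NKG7, and the 6 monocyte and granulocyte markers (ELANE and LYZ at the floor) to 19.3 to 28.7 and 18.1 to 24.1 CPM. Within the last list MPO stood at 10.9 to 21.0 CPM in TOM-1 control and 9.79 to 15.2 CPM under treatment, CSF1R at 4.09 to 4.36 and 0.385 to 0.573 CPM, and CSF3R at 2.04 to 4.21 and 7.91 to 9.09 CPM. In RS4;11 the B-lymphoblast markers summed to 2885 to 3353 CPM and the NK-cell markers to 47.7 to 58.3 CPM. The monocyte and granulocyte markers summed to 13.5 to 20.8 CPM there, with CSF1R at 12.1 to 18.3 CPM. The part of these markers in the results was not tested.

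The departure of TOM-1 control replicate 3 reached the members. Of 26 members compared, 7 were over 1.5 times above the mean of control replicates 1 and 2 in that library (MVK, PMVK, MVD, TM7SF2, NSDHL, EBP and NPC2), and 5 were over 1.5 times below it (HMGCS1, SQLE, SREBF2, NPC1 and STARD4). Replicates 1 and 2 differed from each other by over 1.5 times for 0 of the 26. The 7 raised members had a median exonic length of 2749 bases and the 5 lowered ones 5684 bases. The lengths overlapped, from 1280 (PMVK) to 6480 bases (MVK) and from 4305 (SQLE) to 10102 bases (NPC1). EBP was the farthest above, at 197 CPM against a mean of 48.1, and HMGCS1 the farthest below, at 29.3 CPM against 80.2.

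**Figure D1:**
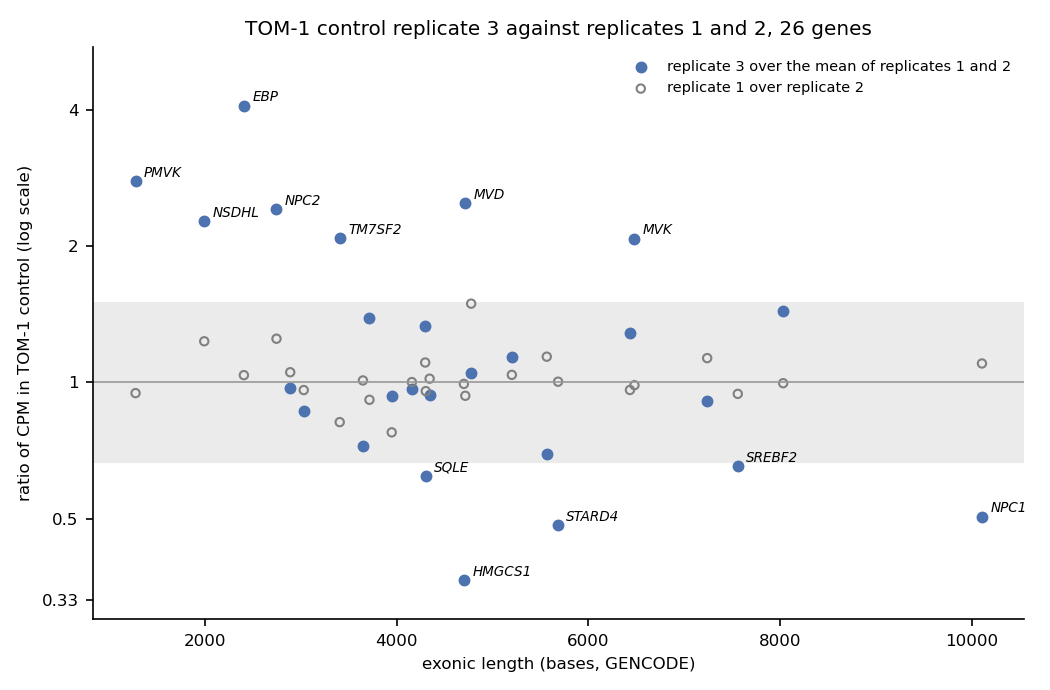
Ratio of CPM in TOM-1 control replicate 3 to the mean of replicates 1 and 2 (filled), and of replicate 1 to replicate 2 (open), against exonic length in bases, for 26 genes with a log ratio axis; the band spans a 1.5-fold change. Of the filled points 7 lie above the band and 5 below it, and no open point lies outside it.

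In TOM-1 under ADI-PEG20, most genes of cholesterol synthesis and of its SREBP control fell, and a few members rose: the reductase HSD17B7, the SCAP anchor INSIG2, the receptor-degrading ligase MYLIP and the efflux pump ABCA1. With all libraries 15 of the 29 members fell and 4 rose, where 15.9% of all tested genes fell and 15.9% rose (edgeR quasi-likelihood test, Benjamini-Hochberg over 17349 genes, adjusted p under 0.05). Without TOM-1 control replicate 3, 18 members fell and 5 rose, where 19.8% of 18321 genes fell and 21.8% rose. The 19 members called with all libraries were all called in the same direction without that library, and 6 members were called in neither fit. Leaving out 1 treated TOM-1 library instead left 13 or 14 members lower and 2 or 3 higher. The calls for HSD17B7 and INSIG2 were among those lost, as given below. The call for ABCA1 rests on few reads, most of them in treated TOM-1 replicate 3. The members' median log2 fold change was -0.68 with all libraries and -0.50 without that replicate, against medians of 0.05 and 0.00 over all tested genes. By library, treated TOM-1 lay wholly below control for 18 members and wholly above for 5, where groups did not overlap for 46.2% of all tested genes. Without control replicate 3 the counts were 20 below and 6 above, where the share was 59.0%. In bulk libraries, fewer cells of a kind and less RNA of a gene per cell cannot be told apart.

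The summed level of the 18 synthesis enzymes was 1079.8, 1058 and 1321 CPM in the 3 TOM-1 control libraries and 615, 628 and 591 CPM in the 3 treated ones. Every treated library was below every control, and the highest control was the departing replicate 3. Of the 18 enzymes, 12 fell, 1 rose (HSD17B7) and 5 did not pass with all libraries, and 13 fell, 1 rose and 4 did not pass without that replicate. In RS4;11 the same sum was 2019, 1992 and 1976 CPM in control and 1899.6, 1852 and 1906 CPM under ADI-PEG20, above every TOM-1 library.

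**Figure D2:**
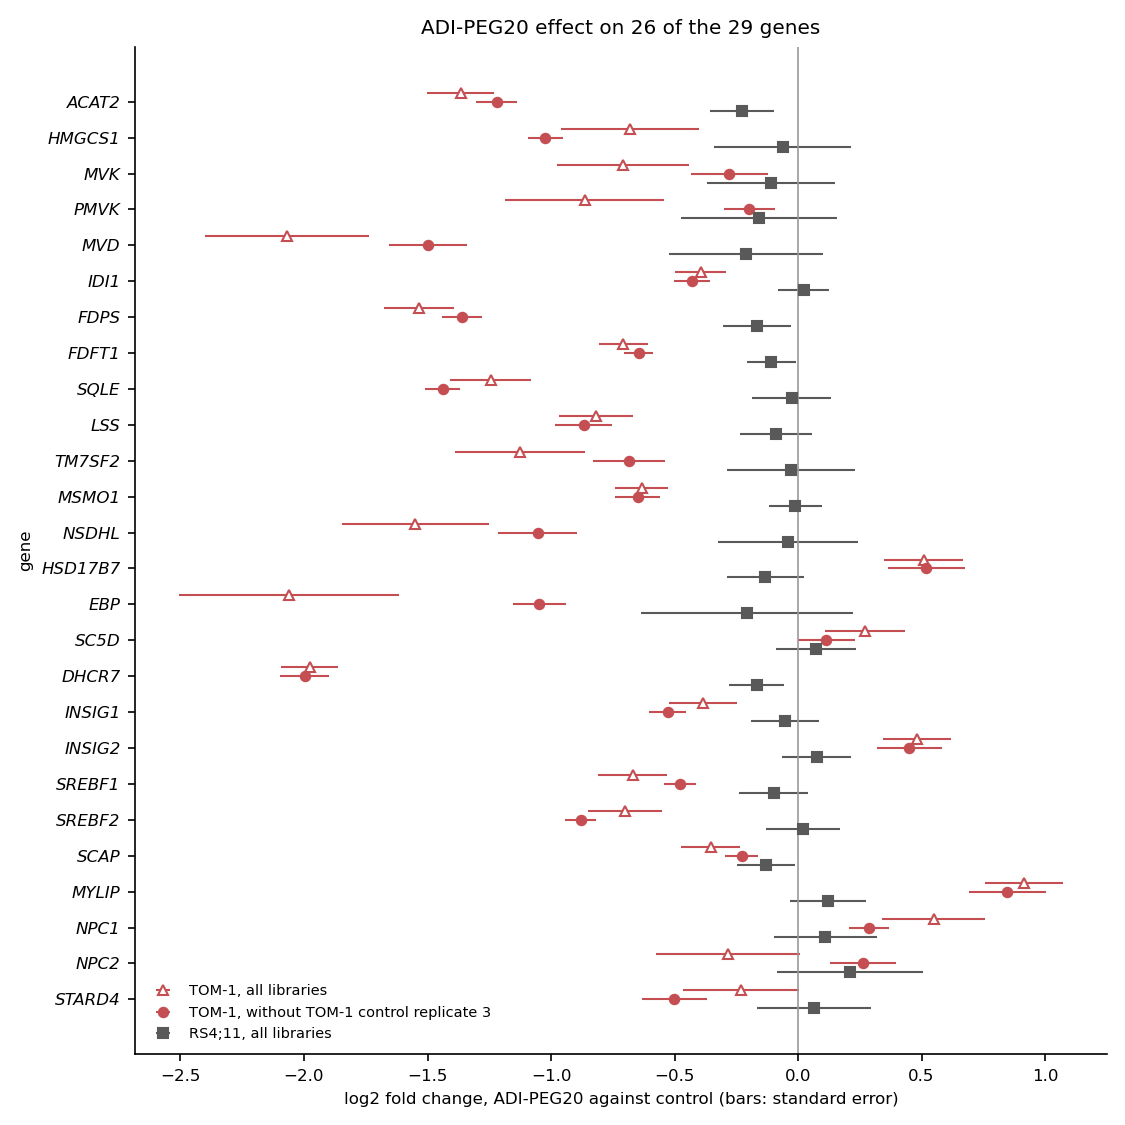
Log2 fold change of ADI-PEG20 against control with its standard error for 26 of the 29 genes: TOM-1 with all libraries (open triangles), TOM-1 without control replicate 3 (filled circles) and RS4;11 with all libraries (squares). ABCA1, ABCG1 and CYP51A1 are left out because groups of theirs were at or near 0 counts; DHCR7 (-2.0) was the lowest circle and MYLIP (0.85) the highest, and every square lies between -0.23 and 0.21.

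Among the early mevalonate enzymes, 4 of 7 fell with all libraries (ACAT2, MVD, IDI1 and FDPS) and 5 without control replicate 3, with HMGCS1 added. MVD (ENSG00000167508) makes isopentenyl diphosphate, the basic isoprenoid unit, and lies at chr16:88651935-88663161 on the minus strand (GENCODE, GRCh38). It stood at 19.7, 21.1 and 50.6 CPM in TOM-1 control and at 8.99, 7.14 and 5.58 CPM under ADI-PEG20. No treated library reached a control, and control replicate 3 was far above the other controls. The log2 fold change was -2.07 (SE 0.33, adjusted p = 0.000737), and -1.50 (SE 0.16, adjusted p = 8.78e-08) without that replicate. FDPS, which joins isoprenoid units into farnesyl diphosphate, stood at 60.4, 66.1 and 87.6 CPM in control and at 24.2, 25.5 and 24.2 CPM under treatment. The treated libraries were close together and far below each control, and the log2 fold change was -1.53 (SE 0.14, adjusted p = 1.93e-05), or -1.36 without replicate 3. FDPS has processed pseudogene copies and overlaps a gene of the opposite strand over 18.6% of its exonic length, and how reads shared between genes were counted is not given in the sources used here.

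ACAT2, the cytosolic thiolase that starts the pathway, stood at 56.5, 51.1 and 71.7 CPM in TOM-1 control and at 22.3, 23.9 and 23.3 CPM under ADI-PEG20. All treated libraries were below all controls, and the log2 fold change was -1.37 (SE 0.13, adjusted p = 3.05e-05), or -1.22 without control replicate 3. ACAT2 shares 52.3% of its exonic bases with opposite-strand genes, so reads of those genes cannot be told apart from its own if strand was not used. HMGCS1, which makes HMG-CoA, stood at 79.9, 80.5 and 29.3 CPM in control and at 36.6, 39.9 and 42.0 CPM under treatment. Control replicates 1 and 2 were above every treated library and control replicate 3 was below them all. The log2 fold change was -0.68 with all libraries (SE 0.28, adjusted p = 0.0852) and -1.02 without replicate 3 (SE 0.07, adjusted p = 1.29e-10). HMGCS1 shares 15.0% and IDI1 14.8% of their exonic bases with opposite-strand genes. IDI1, the isomerase of the basic isoprenoid units, fell by 0.39 on the log2 scale (adjusted p = 0.0124), and by 0.43 without control replicate 3; without the treated replicate 3 its adjusted p was 0.0502.

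MVK and PMVK, the kinases that phosphorylate mevalonate in turn, were not called with or without control replicate 3. MVK stood at 11.3, 11.5 and 23.7 CPM in TOM-1 control and at 10.5, 9.89 and 7.91 CPM under treatment, a log2 fold change of -0.71 (adjusted p = 0.0619) or of -0.28 (adjusted p = 0.17) without replicate 3. PMVK stood at 25.3, 26.8 and 72.6 CPM in control and at 24.7, 23.1 and 20.5 CPM under treatment, a log2 fold change of -0.86 (adjusted p = 0.0585) or of -0.20 (adjusted p = 0.142) without that replicate. For both kinases the groups did not overlap, but most of the difference lay in control replicate 3. Both kinases passed with no filter, with DESeq2, and in edgeR without control replicate 1 or 2 (adjusted p = 0.0221 and 0.0235 for MVK, and 0.0122 and 0.0161 for PMVK).

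From squalene to cholesterol, 8 of 11 enzymes fell in TOM-1 in both fits (FDFT1, SQLE, LSS, TM7SF2, MSMO1, NSDHL, EBP and DHCR7), HSD17B7 rose, and CYP51A1 and SC5D did not pass. DHCR7 (ENSG00000172893), the last step that turns 7-dehydrocholesterol into cholesterol, lies at chr11:71428193-71452868 on the minus strand. It stood at 56.3, 56.2 and 54.4 CPM in TOM-1 control and at 15.3, 12.8 and 14.3 CPM under ADI-PEG20. The controls lay close together, replicate 3 included, and every treated library was far below them. The log2 fold change was -1.98 (SE 0.12, adjusted p = 1.22e-06), and -2.0 without control replicate 3 (SE 0.10, adjusted p = 7.78e-13). Of the members of the synthesis steps it had the lowest fitted value without that replicate.

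SQLE, the monooxygenase that commits squalene to sterol and is often taken as rate limiting, stood at 106, 111 and 67.5 CPM in TOM-1 control and at 40.6, 40.7 and 39.0 CPM under treatment. The treated libraries were nearly equal and below every control, the departing one included. The log2 fold change was -1.24 (SE 0.16, adjusted p = 2.08e-04) with all libraries and -1.44 (SE 0.07, adjusted p = 4.01e-13) without control replicate 3. FDFT1, which joins farnesyl units into squalene, stood at 357, 344 and 398 CPM in control and at 217, 237 and 219.6 CPM under treatment. It fell by 0.71 on the log2 scale (SE 0.10, adjusted p = 3.01e-04), and by 0.65 without replicate 3. LSS, which closes squalene epoxide into lanosterol, stood at 46.7, 41.3 and 40.1 CPM in control and at 28.3, 25.5 and 19 CPM under treatment, a fall of 0.82 on the log2 scale (adjusted p = 0.00158), or of 0.87 without replicate 3.

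The enzymes that remove methyl groups and shift double bonds after lanosterol mostly fell. MSMO1, which oxidises the methyl groups, stood at 40.9, 38.9 and 38.8 CPM in TOM-1 control and at 24.7, 25.2 and 26.5 CPM under ADI-PEG20, with close libraries in both groups and a log2 fold change of -0.63 (adjusted p = 0.00105), or of -0.65 without control replicate 3. NSDHL, which acts after it, stood at 15.4, 12.5 and 31.6 CPM in control and at 7.41, 7.64 and 5.19 CPM under treatment. Its log2 fold change was -1.55 (adjusted p = 0.00217), and -1.05 (adjusted p = 1.18e-05) without control replicate 3. EBP, the isomerase that moves the ring double bond, stood at 49.0, 47.3 and 197 CPM in control and at 25, 24.4 and 20.8 CPM under treatment. The groups did not overlap, yet control replicate 3 was 4.08 times the mean of the other controls, and the log2 fold change went from -2.06 to -1.05 without it. TM7SF2, a sterol reductase, moved in the same way, from -1.13 to -0.69, and passed in both fits (adjusted p = 0.00687 and 5.42e-04).

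HSD17B7, a ketosteroid reductase of the same stretch, went the other way. It stood at 9.89, 6.63 and 8.66 CPM in TOM-1 control and at 10.8, 11.9 and 13.2 CPM under treatment, so that the lowest treated library was just above the highest control. The log2 fold change was 0.51 (SE 0.16, adjusted p = 0.0299), and 0.52 (adjusted p = 0.0102) without control replicate 3. The call was lost, at adjusted p up to 0.145, in 9 of the 12 fits that left out 1 library: TOM-1 control replicate 2, treated replicate 2 or 3, or any RS4;11 library. HSD17B7 has pseudogene copies, which makes its level uncertain. SC5D, the desaturase before DHCR7, stood at 26.7, 23.4 and 17.4 CPM in control and at 30.2, 24.1 and 27.4 CPM under treatment, with overlapping groups and a log2 fold change of 0.27 (adjusted p = 0.234), or of 0.11 (adjusted p = 0.492) without replicate 3. CYP51A1, the lanosterol demethylase, had 0 counts in all 6 TOM-1 libraries, which allows up to 3 counts in each, and 80 to 209 counts in the RS4;11 libraries. In GENCODE release 29 another gene on the same strand shares 79.4% of its exonic bases and had 0 counts in every library, so the CYP51A1 level is uncertain in both lines.

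Of the 5 SREBP control genes, SREBF1, SREBF2 and SCAP fell and INSIG2 rose in TOM-1 with all libraries, and INSIG1 also fell without control replicate 3. SREBF2 encodes the SREBP that mainly drives sterol genes, and stood at 365, 387 and 246 CPM in control and at 218, 199 and 197 CPM under ADI-PEG20. Every treated library was below every control, although control replicate 3 came near. The log2 fold change was -0.70 (SE 0.15, adjusted p = 0.00428), and -0.88 (SE 0.06, adjusted p = 1.85e-10) without that replicate. SREBF1, which encodes the SREBP that mainly drives fatty acid genes, stood at 115, 116 and 166 CPM in control and at 87.5, 81.7 and 80.4 CPM under treatment, a log2 fold change of -0.67 (adjusted p = 0.0037) or of -0.48 without replicate 3. SCAP, the escort of both, had the smallest called change of the 5 genes: 122, 126 and 159 CPM against 105, 109 and 104 CPM, a fall of 0.35 on the log2 scale (adjusted p = 0.0386), or of 0.23 without replicate 3. That call was lost in 5 of 12 fits that left out 1 library (any treated TOM-1 library, RS4;11 control replicate 1 or RS4;11 treated replicate 1), at adjusted p up to 0.0999.

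The 2 INSIG genes, which encode the anchors that hold SCAP back, moved in opposite directions. INSIG1 is itself a known SREBP target, and stood at 167, 165 and 119.9 CPM in TOM-1 control and at 119, 119 and 108 CPM under ADI-PEG20. Control replicate 3 lay level with the treated libraries, and the log2 fold change was -0.39 (SE 0.14, adjusted p = 0.0518) with it and -0.53 (SE 0.08, adjusted p = 5.74e-06) without it. INSIG2 stood at 19.9, 25.6 and 21.2 CPM in control and at 30.3, 32.9 and 29.9 CPM under treatment, above control in every library. Its log2 fold change was 0.48 (SE 0.14, adjusted p = 0.0197), and 0.45 (adjusted p = 0.00823) without control replicate 3. Leaving out TOM-1 control replicate 1 or any treated TOM-1 library ended the call, at adjusted p up to 0.101.

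Of the 4 genes of uptake and transport, MYLIP rose with all libraries, and without control replicate 3 NPC1 also rose and STARD4 fell. MYLIP (ENSG00000007944), at chr6:16129125-16148248 on the plus strand, is an E3 ubiquitin ligase and known LXR target that lowers LDL uptake by marking lipoprotein receptors for breakdown. It stood at 8.81, 9.17 and 7.78 CPM in TOM-1 control and at 19.3, 14.2 and 15.2 CPM under ADI-PEG20. All treated libraries were above all controls, and the log2 fold change was 0.92 (SE 0.16, adjusted p = 0.00109), or 0.85 (adjusted p = 1.27e-04) without control replicate 3. NPC1, which passes cholesterol out of the late endosome, stood at 71.5, 65.0 and 34.5 CPM in control and at 83.2, 85.1 and 82.1 CPM under treatment, a log2 fold change of 0.55 (adjusted p = 0.0636) with replicate 3 and of 0.29 (adjusted p = 0.00712) without it; leaving out control replicate 1 instead gave 0.71 (adjusted p = 0.0256). STARD4, a carrier of sterol between membranes, stood at 18.7, 18.6 and 9.05 CPM in control and at 13.2, 12.6 and 13.9 CPM under treatment. Its log2 fold change was -0.23 (adjusted p = 0.506) with control replicate 3 and -0.50 (adjusted p = 0.00356) without it. NPC2, which hands cholesterol to NPC1, passed in neither fit, and its log2 fold change changed sign, from -0.28 to 0.26, when that replicate was left out.

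ABCA1 (ENSG00000165029), at chr9:104781002-104928237 on the minus strand, is the pump that loads cholesterol onto lipid-poor apolipoprotein and a known LXR target. It had 0 counts in each of the 3 TOM-1 control libraries and 9, 6 and 44 counts in the treated ones, that is 0.385, 0.229 and 1.73 CPM. The treated replicate 3 held most of these reads. Against the limit of 3 counts per library, the mean treated level was at least 6.38-fold higher, and at least 2.51-fold higher without treated replicate 3. The edgeR call had adjusted p = 0.00201, and at most 0.00595 in any fit that left out 1 library. ABCA1 passed the filter on low counts through the RS4;11 libraries, since in TOM-1 only treated replicate 3 was above 0.385 CPM. The fit on the TOM-1 groups alone tested 26 of the 29 members, without ABCA1. These p-values are therefore not taken as support beyond the counts themselves. ABCG1, the second pump, stood at 0 to 1.32 CPM in every library of both lines, which is too near the floor to show a difference at this depth.

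**Figure D3:**
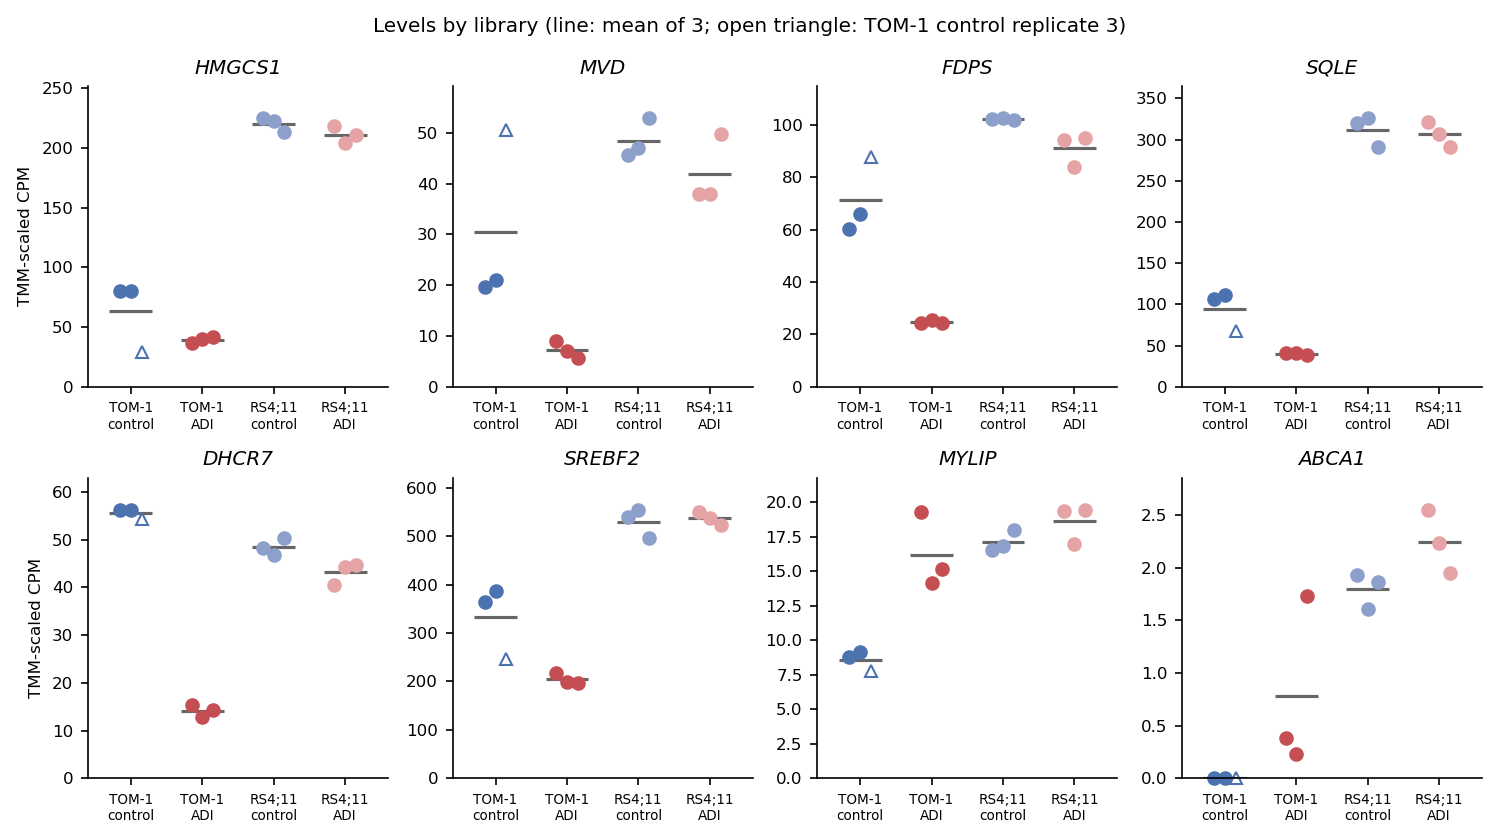
Level in CPM after TMM scaling of 8 genes in each of the 12 libraries, by line and treatment; lines mark group means and the open triangle is TOM-1 control replicate 3. The 3 treated TOM-1 libraries lie below every TOM-1 control for MVD, FDPS, SQLE, DHCR7 and SREBF2 and above every control for MYLIP and ABCA1, while HMGCS1 separates only from controls 1 and 2.

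In RS4;11, no member passed the threshold under ADI-PEG20 in edgeR. The edgeR test called 0 of 29 members and 0 of 17349 genes (0.0%), with 0 members and 325 genes (1.87%) at an unadjusted p under 0.05. Its estimate of the spread was shared over all groups, TOM-1 control replicate 3 included, so it is not that of the RS4;11 libraries alone. On the RS4;11 groups alone edgeR called 3 of 15094 genes and 0 of 28 members. There 1718 genes and 2 members had an unadjusted p under 0.05. Without TOM-1 control replicate 3, 58 genes were called (0.317%) and again 0 members, with 4 members (ACAT2, FDPS, SCAP and EBP) and 12% of genes at an unadjusted p under 0.05. DESeq2 without that library called 4.94% of the 8245 genes it gave an adjusted p, ACAT2 among them (-0.22, adjusted p = 0.0492). The members' median log2 fold change was -0.05 in both fits, against 0.00 over all genes. By library, the groups did not overlap for 10 members, 8 lower and 2 higher under treatment, where 16.8% of all tested genes did not overlap. ACAT2 stood at 108, 111 and 117 CPM in RS4;11 control and at 96.5, 90.4 and 101 CPM under treatment, a log2 fold change of -0.23 (SE 0.13). DHCR7 stood at 48.3, 46.8 and 50.3 CPM in control and at 40.5, 44.3 and 44.7 CPM under treatment, a log2 fold change of -0.17 (SE 0.11). SQLE stood at 319.6, 326 and 291 CPM against 322, 307 and 291 CPM, with overlapping groups and a log2 fold change of -0.03 (SE 0.16).

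The test of the difference between the lines asks whether the ADI-PEG20 effect, with its sign, differed between TOM-1 and RS4;11. With all libraries the effect was lower in TOM-1 for 10 members and higher for 2, where it was lower for 6.05% and higher for 5.89% of all genes. Without TOM-1 control replicate 3 it was lower for 17 and higher for 3, where the shares over all genes were 14.7% and 15.7%. The members' median difference was -0.60 with all libraries and -0.47 without that replicate. The 10 were ACAT2, MVD, FDPS, FDFT1, SQLE, LSS, MSMO1, NSDHL, DHCR7 and SREBF2, and the 2 were MYLIP and ABCA1. DHCR7 differed by -1.81 (SE 0.16, adjusted p = 7.53e-05), FDPS by -1.37 (SE 0.20, adjusted p = 0.00135) and SQLE by -1.22 (SE 0.23, adjusted p = 0.00601). MYLIP differed by 0.79 (SE 0.22, adjusted p = 0.036). Without TOM-1 control replicate 3 these differences were -1.83 for DHCR7, -1.20 for FDPS, -1.41 for SQLE and 0.73 for MYLIP. The calls for DHCR7, FDPS, SQLE, ACAT2 and ABCA1 held in each of the 12 fits on 11 libraries (adjusted p at most 0.0409). That of ABCA1 rests on counts near the floor in TOM-1 and on a filter passed through the RS4;11 libraries. The other 7 calls were each lost in between 2 fits (FDFT1) and 11 fits (SREBF2), at adjusted p up to 0.122. The number of members lower was 5 without treated TOM-1 replicate 2 or 3, RS4;11 control replicate 2 or RS4;11 treated replicate 3, 6 without RS4;11 control replicate 1 or treated replicate 1, and 7 to 12 without any of the other TOM-1 or RS4;11 libraries besides TOM-1 control replicate 3. For MVK, PMVK, CYP51A1, SC5D, SCAP, INSIG2, NPC1, NPC2 and ABCG1 no difference between the lines was called in either fit.

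Without ADI-PEG20 too, TOM-1 held less RNA of most sterol pathway members than RS4;11. In control culture 18 members were lower in TOM-1 and 1 was higher (NPC2), where 18.4% of all genes were lower and 16.2% higher. The 18 include CYP51A1, whose level is uncertain in both lines, and ABCA1. Both had 0 counts in every TOM-1 control library and passed the filter on low counts through the RS4;11 libraries. Their calls here are therefore not taken as support. They are also among the members lower without TOM-1 control replicate 3, and among those wholly below RS4;11 by library. Without TOM-1 control replicate 3, 22 were lower and 3 higher (INSIG2, NPC1 and NPC2), where the shares over all genes were 27.5% and 25.4%. The members' median was -0.68, or -0.94 without that replicate, against 0.01 over all genes with all libraries. SQLE stood at 3.29 times and HMGCS1 at 3.48 times the TOM-1 level in RS4;11 control (2.88 and 2.75 times without TOM-1 control replicate 3). HSD17B7 stood at 3.61 times and LSS at 2.91 times, with values of 3.64 and 2.83 without it. By library, 18 members lay wholly below RS4;11 and 4 wholly above, where groups did not overlap for 42.7% of genes; without TOM-1 control replicate 3 the counts were 23 and 5, where the share was 66.5%. DHCR7 and EBP were the only enzymes for which every TOM-1 control library lay above those of RS4;11. Neither passed the edgeR test with all libraries (adjusted p = 0.194 and 0.0512) or without TOM-1 control replicate 3. The EBP mean in TOM-1 control was 97.6 CPM, and 48.1 CPM without that replicate, against 42.8 CPM in RS4;11 control. ABCA1 stood at 1.93, 1.61 and 1.87 CPM in RS4;11 control, at least 14.7-fold higher than the limit of 0 counts in TOM-1 control.

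Under ADI-PEG20 the lines stood further apart. Treated TOM-1 was lower than treated RS4;11 for 21 members and higher for 2 (INSIG2 and NPC1), where 24.0% of all genes were lower and 23.1% higher, and the members' median was -1.39. Without TOM-1 control replicate 3 in the shared fit, 24 were lower and 3 higher, where the shares were 31.5% and 31.4%. CYP51A1, with 0 counts in TOM-1, is among the 21 and the 24, and ABCA1 is among the 24. Both passed the filter on low counts through the RS4;11 libraries, so their calls are not taken as support. Both are also among the members wholly below by library. By library 24 members lay wholly below and 3 wholly above, where groups did not overlap for 70.6% of genes (68.6% of the genes tested without TOM-1 control replicate 3, with the same member counts). SQLE was 7.65 times, MVD 5.79 times, HMGCS1 5.33 times and LSS 4.83 times as high in treated RS4;11 as in treated TOM-1. MYLIP, lower in TOM-1 control (log2 -0.99, adjusted p = 3.52e-04), stood at 14.2 to 19.3 CPM in treated TOM-1 and 17.0 to 19.5 CPM in treated RS4;11, with overlapping libraries (adjusted p = 0.319). DHCR7 moved from above RS4;11 in control to 3.05 times below it under treatment (adjusted p = 4.03e-07).

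**Figure D4:**
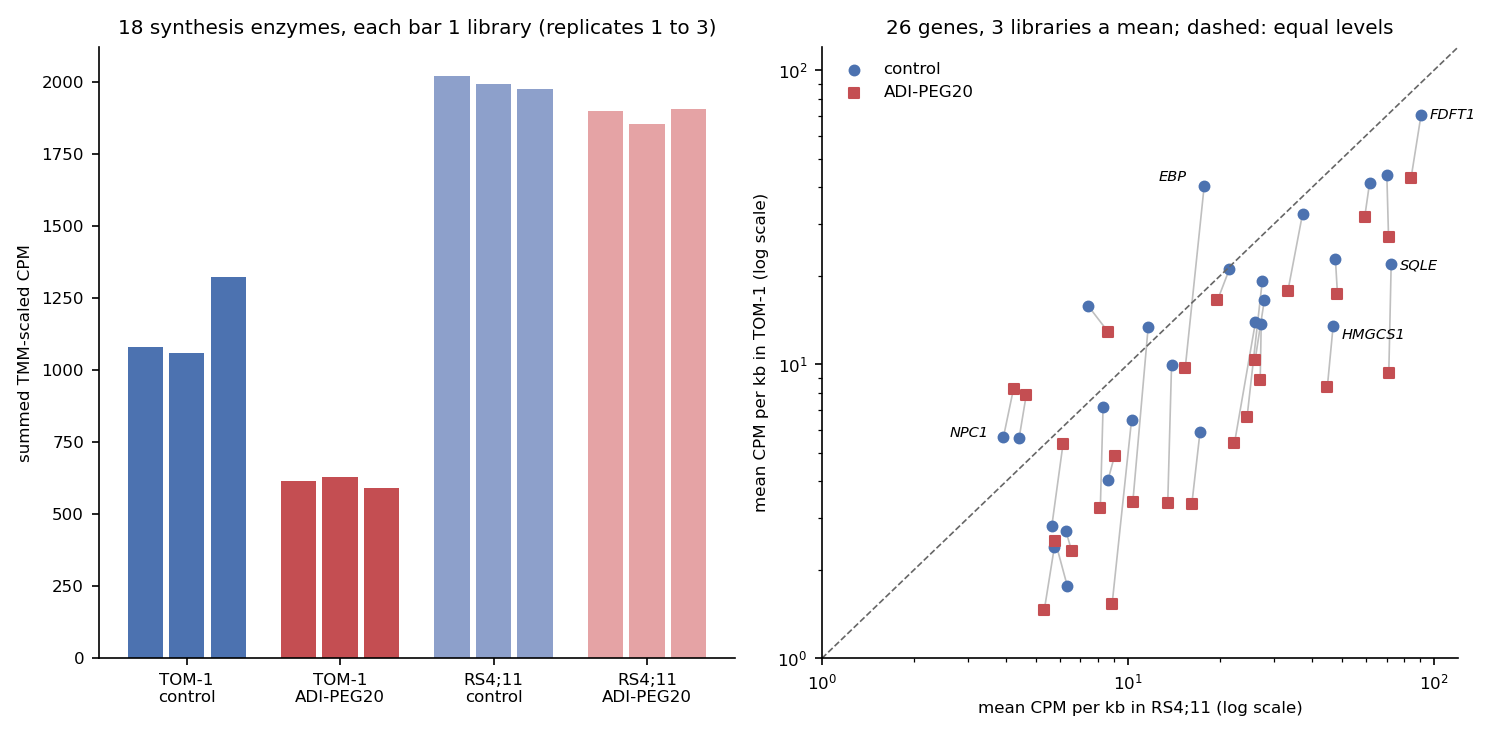
Left, summed level of the 18 synthesis enzymes in CPM after TMM scaling in each library. Right, mean level per kilobase of exon in TOM-1 against RS4;11 on log axes for 26 genes in control (circles) and under ADI-PEG20 (squares), joined per gene; the treated points lie lower than the control points for most genes, and the control mean of EBP rests on TOM-1 control replicate 3.

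Levels per kilobase of exon let the members be ranked against each other. FDFT1 was the highest of the 29 in every group, at 70.5 ± 5.5 CPM per kb (SD, n = 3) in TOM-1 control, 43.1 ± 2.1 in treated TOM-1, 90.8 ± 1.5 in RS4;11 control and 84.2 ± 3.1 in treated RS4;11. SQLE and SREBF2 followed in RS4;11 control at 72.5 ± 4.4 and 70.2 ± 3.9 CPM per kb, which do not differ beyond their spread. In TOM-1 control SREBF2 (44.0 ± 10.1), INSIG1 (41.3 ± 7.3) and EBP (40.5 ± 35.6) came next within overlapping spreads, and SQLE was the seventh at 22 ± 5.5 CPM per kb. That order rests on control replicate 3: without it (n = 2) FDFT1 stood at 67.4, SREBF2 at 49.7 and INSIG1 at 45.5 CPM per kb, SQLE was the fourth at 25.2, and PMVK (20.3) and EBP (19.99) came after IDI1 (23.4). In treated TOM-1 SQLE was the tenth, at 9.31 ± 0.22 CPM per kb. INSIG2 and NPC1 were near the end of the order in RS4;11 control, at 4.41 ± 0.15 and 3.92 ± 0.15 CPM per kb, and stood at 7.86 ± 0.41 and 8.26 ± 0.15 in treated TOM-1. Exonic lengths are those of GENCODE over all transcripts of a gene, so the order depends on which transcripts the cells make.

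Other genes of the pathway were taken from 5 further lists with 54 genes, of which 50 were tested. In TOM-1, 14 of these fell and 13 rose with all libraries, where 15.9% of all tested genes fell and 15.9% rose. Without control replicate 3, 21 fell and 17 rose, where the shares were 19.8% and 21.8%. The counts by list that follow are from the fit with all libraries. Of 10 tested genes of other sterol and isoprenoid steps 3 fell and 3 rose, and of 12 genes of SREBP processing and sterol sensing 2 fell and 4 rose. Of 9 fatty acid genes under SREBP1, 5 fell and 2 rose. Of 6 LXR genes and targets 1 fell and 1 rose, and of 13 tested genes of uptake, storage and transport 3 fell and 3 rose. SCD, the desaturase that makes oleate, stood at 109.9, 106 and 54.0 CPM in control and at 7.92, 9.58 and 7.55 CPM under treatment, a log2 fold change of -3.43, or of -3.69 without control replicate 3. TMEM97, an endoplasmic reticulum protein that binds NPC1 and sterol, fell by 2.47 on the log2 scale, from 76.0, 79.8 and 97.3 CPM to 15.7, 16.5 and 13.6 CPM, and by 2.35 without that replicate. FASN, the fatty acid synthase, fell by 1.55 on that scale, and by 1.67 without that replicate; in RS4;11 it was also called lower, at -0.23 (adjusted p = 0.0394), in the fit without TOM-1 control replicate 3. In the other direction ERLIN2, which helps to degrade sterol-regulated proteins, rose by 1.10 on the log2 scale, MBTPS2, the Golgi protease that makes the final SREBP cut, rose by 1.07, and SP1, a factor that acts beside SREBP, rose by 0.93. ERLIN2, MBTPS2 and SP1 were each lowest in TOM-1 control replicate 3, and their log2 fold changes without it were 0.85, 0.81 and 0.58. The difference between the lines was called for SCD (-3.32), TMEM97 (-2.57), FASN (-1.32), ERLIN2 (0.94) and MBTPS2 (1.10), and not for SP1 (0.67).

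The promoter letters were set beside the direction of change as a description. Of the 15 members with a listed promoter that fell in TOM-1 without control replicate 3, 12 held CCAAT, as did 2 of the 5 that rose and 3 of the 5 that were not called. The sterol regulatory element pattern was found in 1 of the 15, and CACGTG in 2 of the 15, 1 of the 5 and 1 of the 5.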

How the data were processed

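Column-purified total RNA was poly(A)-selected for sequencing, per the labels. The authors deposited 1 table of raw read counts, whole numbers per Ensembl gene. The submitters' processing notes name STAR, SAMtools, featureCounts and hg38; versions, strand, annotation release and the treatment of shared reads are not given in the sources used here. Columns were matched to samples through the column names in the labels.

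Symbols, positions, exonic lengths and overlaps came from GENCODE release 29 (GRCh38), and promoters from RefSeq (GRCh38.p14). The main tests used edgeR 4.0.16 (R 4.3.3): filterByExpr, TMM scaling, 1 group-means model over 12 libraries, glmQLFTest for 5 contrasts, Benjamini-Hochberg over all tested genes and a threshold of 0.05. Fold changes are log2, the standard error (SE) is the log2 fold change divided by the square root of F, and CPM are counts relative to the TMM-scaled library total. A count of 0 was taken to allow 3 counts; these limits hold for counting error alone, as PCR copies carry no molecular identifier. Replicates of a group differed by more than sampling noise (chi-square over its degrees of freedom 4.93 or more). Deviations of same-numbered libraries from their group means were at most weakly correlated (-0.06 to 0.14). Between control and treated libraries the correlations were all positive in RS4;11 (0.06, 0.03 and 0.14) and all negative in TOM-1 (-0.03, -0.01 and -0.06). Numbers were not taken as pairs in the main fit, though pairing is not excluded.

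Alternatives were DESeq2 size factors, no filter, a minimum mean of 10 counts, DESeq2 1.42.0 (Wald test), a replicate block, limma 3.58.1 voom with quality weights, fits on the compared groups alone and each library left out; DESeq2 without TOM-1 control replicate 3 was chosen after seeing the data. All 29 members are named; of 54 other genes, the 3 in each direction with the largest change in TOM-1 that passed, reached a mean of 5 CPM and did not overlap. Promoters shown are of the 2 members that fell most and the 2 that rose most in TOM-1 without control replicate 3, outside chromosome 8. Members and lists were chosen with earlier results of these data known.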

Additional observations from a re-analysis of the deposited data

Results flagged for a closer look

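The effect of ADI-PEG20 differed between TOM-1 and RS4;11, by the test of the difference itself in the edgeR fit over all libraries, for 12 members. The difference, TOM-1 minus RS4;11 on the log2 scale, was -1.14 for ACAT2, -1.86 for MVD, -1.37 for FDPS, -0.60 for FDFT1, -1.22 for SQLE, -0.73 for LSS, -0.62 for MSMO1, -1.51 for NSDHL, -1.81 for DHCR7 and -0.72 for SREBF2. It was 0.79 for MYLIP. For ABCA1 the fitted value was 6.92, which rests on 0 counts in TOM-1 control and is no bound. Of these, MVD and NSDHL were over 1.5 times above the other controls in TOM-1 control replicate 3, and their differences without it were -1.28 and -1.01. SQLE and SREBF2 were over 1.5 times below the other controls there, and their differences without it were -1.41 and -0.90. All 12 were called without that library as well.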

How the results depend on the processing

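Of the members' own values, none reversed a called direction under any alternative. For ADI-PEG20 in TOM-1, 5527 genes were called, 8434 with voom and 2639 on the compared groups alone; the members higher numbered 4, against 2 with no filter, 1 on those groups alone and 2 to 5 leaving out 1 library, and the members lower 15, against 10 of the 26 tested on those groups alone. In RS4;11, 0 genes were called, 17 with voom, 3 on its groups alone, 407 with DESeq2 without TOM-1 control replicate 3 and 0 to 58 leaving out 1 library; in that DESeq2 fit 1 member was lower (ACAT2, -0.22, adjusted p = 0.0492). For the difference between the lines, 2072 genes were called, 3228 with DESeq2, 5868 with voom, 5576 with DESeq2 without that replicate and 1169 to 5567 leaving out 1 library. The members higher numbered 2, against 1 with no filter, 4 with voom and 1 to 3 leaving out 1, and the members lower 10, against 17 with voom, 17 with that DESeq2 fit and 5 to 17 leaving out 1. Between the lines in control culture, 6014 genes were called, 10037 with voom, 3548 on the 2 groups alone, 9736 with DESeq2 without that replicate and 4731 to 9681 leaving out 1; the members higher numbered 1, against 2 with no filter, 2 with DESeq2, 4 with voom, 0 on the groups alone, 3 with that DESeq2 fit and 0 to 3 leaving out 1. Leaving out a library or fitting groups alone also changes how many samples enter, and the cause of each shift was not tested. With the replicate block, 5324 genes, 15 members lower and 4 higher were called in TOM-1, 0 in RS4;11, and 8 members lower and 2 higher in the difference. TMM and DESeq2 size factors gave medians over all genes of 0.05 and 0.01 in TOM-1. The difference between the lines uses all 4 groups, so it has no fit on fewer groups. Depth limited ABCA1, ABCG1 and CYP51A1, and the filter on a mean of 10 counts left 28 members.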
